A study of Mus musculus with 12 samples.

Results

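The comparison described here sets the 3 libraries labelled double knockout (DKO) against the 3 labelled Gadd45a knockout (Gadd45a KO), chosen by their titles, 6 libraries of the 12 in the study. RNA was sequenced from undifferentiated mouse embryonic fibroblasts, connective tissue cells grown from embryos. The cells labelled DKO have the genotype Gadd45a-/-;Ing1-/-, and those labelled Gadd45a KO lack only Gadd45a by label, so both groups carry the Gadd45a loss and differ by label in Ing1. Where the background matters, the same 2 groups are set beside the other pair of the study, Ing1 KO (Ing1-/-) against wild type (WT), which shares no library with them. All cells were C57BL/6N, male, taken at E15.5, cultured for 4 passages and harvested at 80% confluency without further treatment; both alleles are germline, so every cell of the embryo carries them. Whether replicate libraries derive from different embryos is not stated, so p-values measure only the spread between libraries, which may be technical.

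Ing1 encodes a protein with a PHD finger that binds methylated histone tails at active promoters and belongs to the Sin3 histone deacetylase complex. Gadd45a encodes a small stress-inducible protein with roles in growth arrest, DNA repair and DNA demethylation. The question the comparison addresses is how the transcriptome differs with Ing1 loss when Gadd45a, by label, is already missing.

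Gene counts ran from 31493168 to 42852059 per library over all 12. Levels are CPM, counts scaled to each library's size with TMM, and changes are log2 fold changes of labelled DKO over labelled Gadd45a KO with their standard error (SE). A gene is called when its edgeR adjusted p is under 0.05. The fibroblast collagen genes Col1a1 and Col1a2 were abundant in all 6 libraries, Col1a1 between 20064 and 22504 CPM in labelled DKO and between 20678 and 24373 CPM in labelled Gadd45a KO. Neither was called, nor were Thy1 and Pdgfra, while Pdgfrb, another fibroblast marker, had 502, 478 and 512 CPM in labelled DKO, against 631, 633 and 619.9 CPM in labelled Gadd45a KO, and fell by 0.34. The red blood cell gene Hba-a1 was at 0 in every library, and the muscle gene Myod1 was at 0 in labelled DKO and at most 0.0464 CPM in labelled Gadd45a KO.

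Ing1 RNA was nearly absent where the label says so. Ing1 (ENSMUSG00000045969, chromosome 8) had 1.29, 0.916 and 1.14 CPM in labelled DKO, against 49.7, 54.5 and 52.2 CPM in labelled Gadd45a KO. It fell by 5.53 on the log2 scale (SE 0.10, edgeR adjusted p = 1.02e-12), and its fall in Ing1 KO against WT was as deep at -5.42. Gadd45a (ENSMUSG00000036390, chromosome 6) had 132, 119.9 and 127 CPM in labelled DKO and 75.9, 118 and 106 CPM in labelled Gadd45a KO. Both sets lie well above the 20.9, 21.1 and 21.3 CPM of the WT, so the Gadd45a count does not match a loss of RNA. Which part of Gadd45a the allele removes is not stated in what was used here, a count taken outside it checks nothing, and Gadd45a overlaps E230016M11Rik on the other strand. The libraries are therefore called labelled DKO and labelled Gadd45a KO throughout. Between them Gadd45a had a log2 fold change of 0.34 (SE 0.13) and was not called (edgeR adjusted p = 0.0884).

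**Figure D1:**
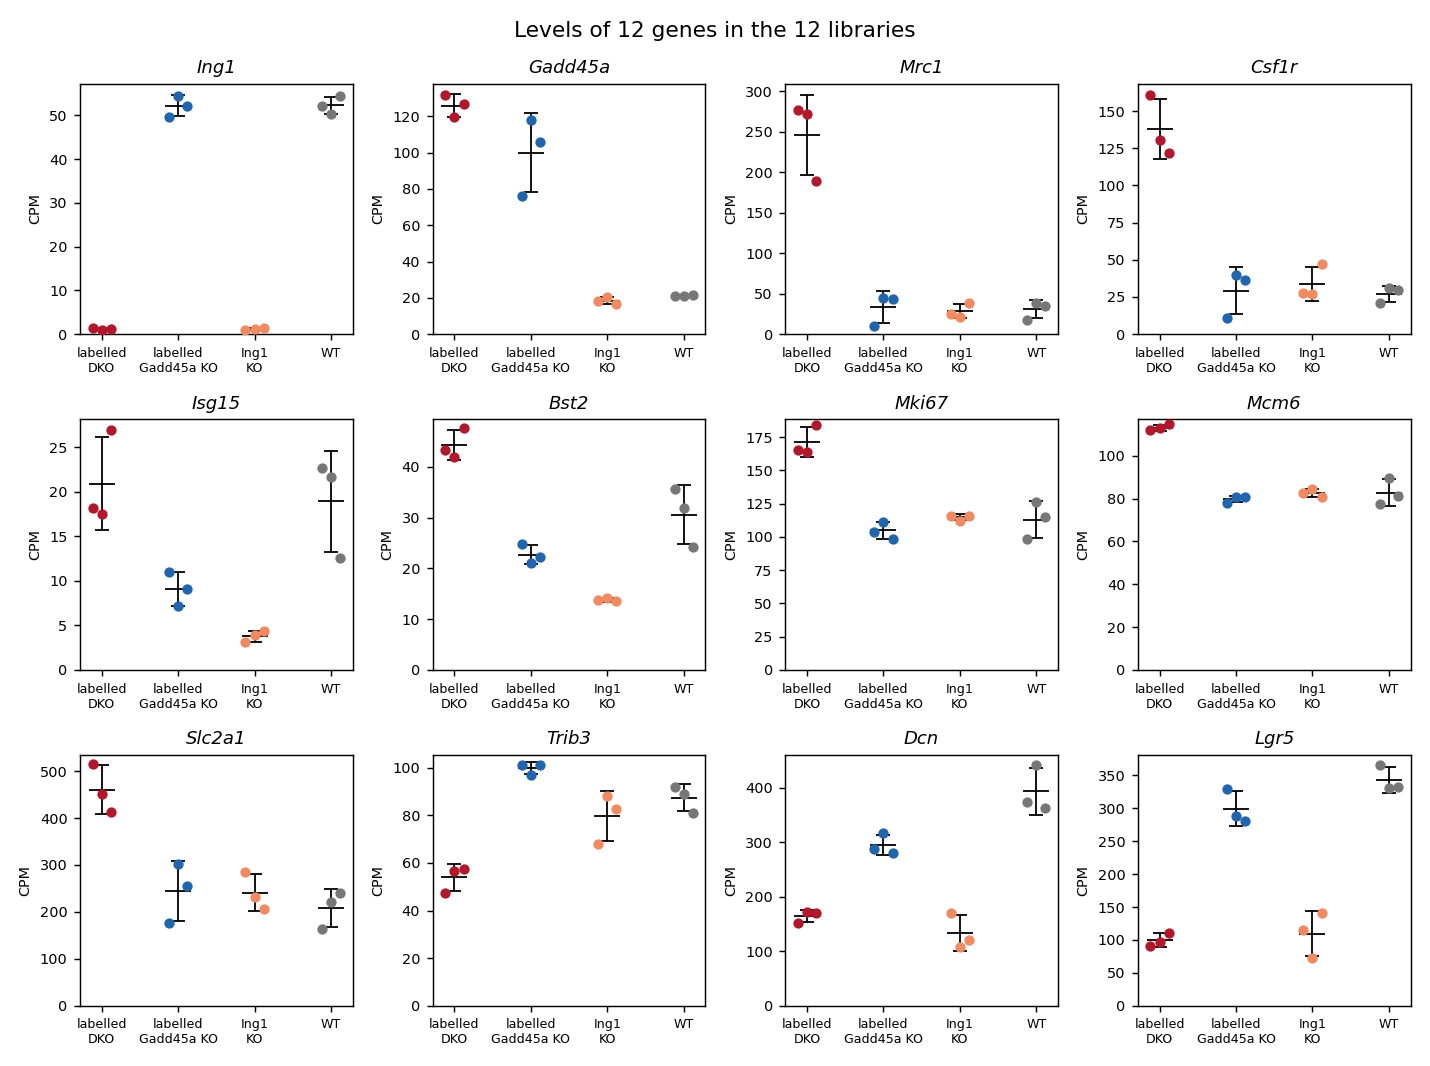
Level of 12 genes in each of the 12 libraries, in CPM on a linear axis from 0. Points are libraries, the horizontal mark is the group mean and the whiskers are 1 SD (n = 3). Ing1 is near 0 in labelled DKO and Ing1 KO, Mrc1 and Csf1r stand far higher in labelled DKO than in the other 9 libraries, and Lgr5 is low in both groups that lack Ing1.

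Of 15098 genes tested, 3988 were called (26.4%), 2387 higher (15.8%) and 1601 lower (10.6%) in labelled DKO. Changes were mostly small: called changes had a median size of 0.41 on the log2 scale, and 565 genes (3.74%) rose and 259 (1.72%) fell at least 2-fold. The libraries of both groups did not overlap for 6895 genes (45.7%). The count of lower genes rested partly on single libraries, at 983 without labelled Gadd45a KO replicate 1 and 1060 without labelled DKO replicate 1.

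**Figure D2:**
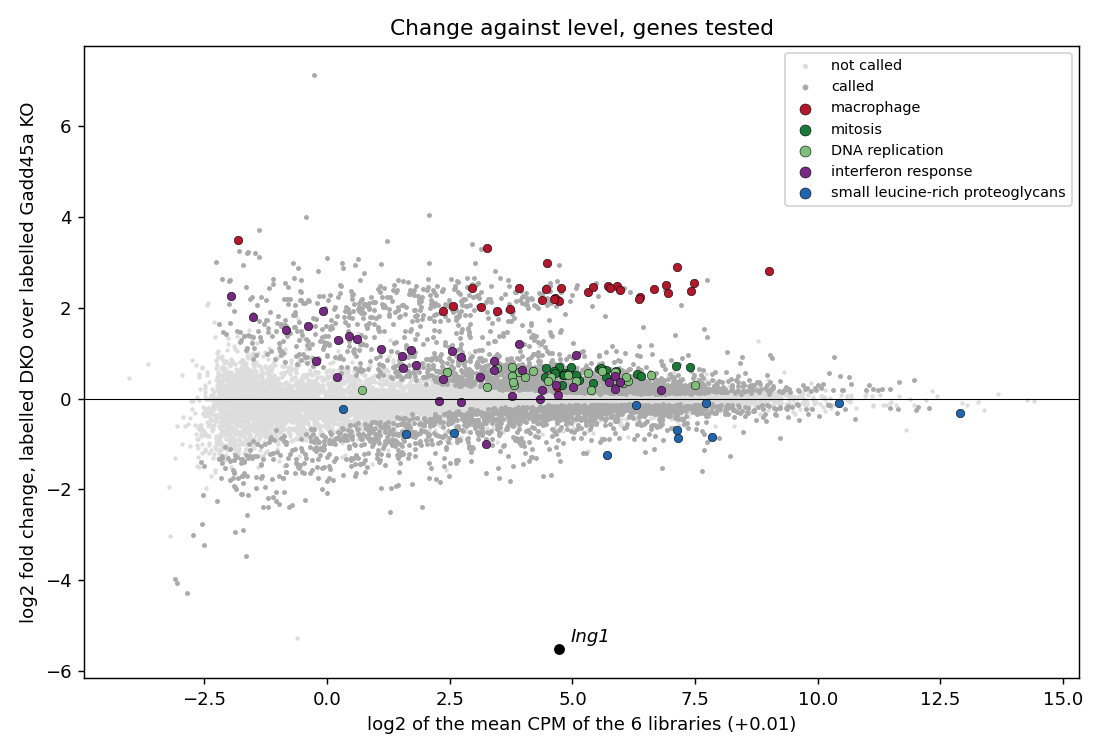
Log2 fold change of labelled DKO over labelled Gadd45a KO (vertical axis) against the log2 mean CPM of the 6 libraries (horizontal axis), 1 point per gene tested. Called genes are dark grey and 5 gene lists are coloured. The macrophage list forms a band near 2.4, replication and mitosis genes sit in a narrow band near 0.5, and Ing1 lies lowest among abundant genes.

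The macrophage list had the highest median change of the 35 lists. Macrophages are phagocytes of blood and yolk sac origin that live in embryonic connective tissue and can be carried into fibroblast cultures. Mrc1, the mannose receptor gene, had 277, 272 and 189 CPM in labelled DKO, against 10.3, 44.8 and 44 CPM in labelled Gadd45a KO. Csf1r, the receptor for the growth factor macrophages depend on, had 161, 130.5 and 122 CPM in labelled DKO, against 10.9, 40.1 and 36.7 CPM in labelled Gadd45a KO. Labelled Gadd45a KO replicate 1 was the lowest of all libraries for both genes, and every labelled DKO library was above every other. Mrc1 rose by 2.90 (SE 0.53, edgeR adjusted p = 0.00418) and Csf1r by 2.23 (edgeR adjusted p = 0.00589) on the log2 scale; Csf1r overlaps Hmgxb3.

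All 32 tested members of the macrophage list rose (15.8% of all genes did), with a median of 2.40, where the median of all genes was 0. Of 34 listed, Lyve1 and Cd163 did not pass the filter on low counts, and 31 of the 32 would have passed it in the other 9 libraries alone. Spi1, the macrophage lineage factor PU.1, had 22.4, 21.7 and 18.9 CPM in labelled DKO and 2.37, 7.14 and 6.42 CPM in labelled Gadd45a KO. Lyz2, lysozyme, reached 1045 CPM in labelled DKO replicate 1, against at most 174 CPM in labelled Gadd45a KO. Of the 32, 31 lay between 1.93 and 3.50. Timd4, a receptor for dying cells, was near the detection limit, with 0.604, 0.506 and 0.398 CPM in labelled DKO and at most 0.0757 CPM in labelled Gadd45a KO.

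Summed over the list, macrophage RNA stood at 4027, 3347 and 3286 CPM in labelled DKO, against 236, 848 and 827 CPM in labelled Gadd45a KO. It was 618, 547 and 962 CPM in Ing1 KO and 428, 710.4 and 668 CPM in WT. The labelled DKO sums were all above those of the other 9 libraries, and the spread within labelled Gadd45a KO came from replicate 1. Without that library 30 members were called and the median was 2.01. In bulk RNA more cells of a type and more RNA per cell cannot be told apart. None of the 32 rose in Ing1 KO against WT (12.1% of all genes did), 1 of them fell (11.4% of all genes did), and the median was 0.21. The test of the difference between the 2 changes with Ing1 loss called 20 of 32 higher, where 10.4% of all genes were.

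Among called genes with a mean of at least 2 CPM over the 6 libraries and no overlap between the groups, the 12 that rose most included 4 members of the macrophage list, Fcgr2b, Pf4, Mrc1 and Lyz2. First of the 12 was Arg1, arginase, a marker of alternatively activated macrophages. It had 12.5, 7.55 and 3.77 CPM in labelled DKO, against 0.312, 0.656 and 0.464 CPM in labelled Gadd45a KO (log2 fold change 4.04, SE 0.46; adjusted p = 0.000197 by edgeR). The labelled DKO values spread widely but did not reach those of labelled Gadd45a KO. Wfdc17 (3.48), Ccl6 (3.41), Fcgr2b (3.32), F13a1 (3.30), Csf2rb2 (3.00), Pf4 (2.99), Clec4d (2.98), Slco2b1 (2.96) and Clec4n (2.95) followed. Ccl6 and Pf4 encode chemokines, Fcgr2b an antibody receptor, F13a1 a clotting transglutaminase and the Clec4 genes lectins of myeloid cells. Apoe (picked after its values were seen) and Cd36, listed with adipocyte genes but also made by macrophages, rose by 2.61 and 2.39.

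Outside the comparison, macrophage genes had their own pattern, noticed after the values were seen: 87.5% of the list was lowest in WT replicate 1 within WT and highest in Ing1 KO replicate 3 within Ing1 KO. The same pattern was held by 59.1% of the 565 genes that rose at least 2-fold, by 16% of the genes that rose less, by 4.63% of those that fell at least 2-fold and by 12.5% of all genes tested. It was held by 23.1% of the DNA replication list, by 2.63% of the interferon list, by 4.76% of the glycolysis list and by no mitosis gene. Its first feature alone, the lowest WT value in replicate 1, was more widely shared: it was seen in 93.8% of the macrophage list, 87.5% of the mitosis list, 66.7% of the glycolysis list and 65.4% of the replication list, beside 33.7% of all genes. Its second, the highest Ing1 KO value in replicate 3, was seen in 93.8% of the macrophage list, 26.9% of the replication list, 4.76% of the glycolysis list and no mitosis gene, beside 35.7% of all genes. Of the genes that rose most, Arg1, F13a1 and Clec4d lacked the second feature, with their highest Ing1 KO value in replicate 1. Arg1 lacked the first as well, at 0.626 CPM in WT replicate 1 and 0.508 CPM in WT replicate 2.

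Of 12 tested signals that attract or sustain macrophages 1 rose and 3 fell, where 15.8% of all genes rose and 10.6% fell. Csf1, the main growth factor of macrophages, had 220.3, 211 and 225 CPM in labelled DKO and 237, 241 and 234 CPM in labelled Gadd45a KO and was not called, and Ccl2, a monocyte attractant, was not called at -0.04. Il34, the other ligand of the Csf1 receptor, fell by 1.24, Kitl by 1.22 and Cx3cl1 by 0.50. The one that rose was Ccl9, a chemokine that macrophages also make, at 47.8, 51.6 and 32.7 CPM in labelled DKO, against 2.5, 9.81 and 9.39 CPM in labelled Gadd45a KO. Il1b, an inflammatory cytokine of macrophages, had 1.78, 1.42 and 0.955 CPM in labelled DKO and at most 0.151 CPM in labelled Gadd45a KO.

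Of 10 tested endothelial genes 4 rose (15.8% of all genes did) and only Tek fell, by 1.82 (10.6% of all genes fell). Kdr, a receptor for vascular growth factor, had 3.97, 3.98 and 4.77 CPM in labelled DKO, against 1.17, 2.25 and 2.13 CPM in labelled Gadd45a KO (log2 fold change 1.19, edgeR adjusted p = 0.00187). Pecam1, an adhesion protein also made by macrophages, rose by 2.20, Vwf by 1.27 and Cdh5, a cadherin of endothelial junctions, by 1.46. Pecam1 and Cdh5 were scarce, at most 1.32 and 0.474 CPM in labelled DKO. Cdh5 had at most 0.202 CPM in labelled Gadd45a KO, and its 0.362, 0.554 and 0.312 CPM in Ing1 KO were near the labelled DKO level. The list summed to 274, 281 and 240.3 CPM in labelled DKO, against 171, 187 and 191 CPM in labelled Gadd45a KO, higher in every labelled DKO library. Most of the sum was Flt1, at 259, 267 and 227 CPM in labelled DKO and 161, 175 and 179.8 CPM in labelled Gadd45a KO, which was not called (log2 fold change 0.55). The epithelial gene Cdh1 had at most 3.39 CPM, and Epcam was at or near 0 in every library.

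Genes of the interferon response rose in labelled DKO, the opposite of their direction in Ing1 KO. Interferons bind cell surface receptors and, through factors that include Stat2 and Irf9, switch on antiviral genes whose promoters carry an interferon-stimulated response element (ISRE). Of 38 tested members 23 rose, against 15.8% of all genes, and 1 fell, against 10.6%, with a median of 0.65. Without the labelled DKO libraries 36 of the 38 would have passed the low-count filter. In Ing1 KO against WT none rose (12.1% of all genes did) and 34 fell (11.4% of all genes did), with a median of -1.30. The difference between the 2 changes was called higher for 34 of 38 (10.4% of all genes were) and lower for none (7.4% of all genes were lower), with a median of 2.08.

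The promoters below are shown because the ISRE is a sequence through which interferon can switch on genes, and they were picked from list members that hold a match. They are RefSeq sequences of GRCm38.p6, written on the gene's strand up to the base before its annotated start, with matches to the ISRE core in capitals: GAAA, any 2 bases, then GAAA, on either strand.
Isg15, chr4:156200819-156200938, minus strand: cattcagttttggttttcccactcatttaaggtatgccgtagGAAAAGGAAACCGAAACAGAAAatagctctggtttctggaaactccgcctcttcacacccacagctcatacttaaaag
Bst2, chr8:71537473-71537622, minus strand: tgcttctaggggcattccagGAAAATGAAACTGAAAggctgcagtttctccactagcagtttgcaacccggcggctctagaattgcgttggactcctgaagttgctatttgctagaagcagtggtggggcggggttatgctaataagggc
Trim30a, chr7:104465194-104465293, minus strand: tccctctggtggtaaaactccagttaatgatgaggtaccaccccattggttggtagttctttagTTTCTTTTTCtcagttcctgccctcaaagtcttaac
Ifit1, chr19:34640769-34640888, plus strand: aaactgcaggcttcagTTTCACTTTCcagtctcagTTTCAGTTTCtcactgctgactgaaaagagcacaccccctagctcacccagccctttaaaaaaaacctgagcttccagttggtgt

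Isg15 held 3 overlapping matches, Bst2 2 overlapping, Ifit1 2 and Trim30a 1. Promoter sequences were at hand for 28 interferon members, and 12 of them (42.9%) held a match in the 250 bases before the start, beside 346 of 10972 tested genes with a promoter (3.15%). A match is a description of the letters and not a site shown to be used.

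Isg15, a ubiquitin-like protein, had 18.2, 17.5 and 26.9 CPM in labelled DKO, against 11, 7.21 and 9.09 CPM in labelled Gadd45a KO. It had 3.13, 3.93 and 4.34 CPM in Ing1 KO and 22.7, 21.6 and 12.5 CPM in WT. Thus labelled DKO lay above labelled Gadd45a KO and near the WT range, while Ing1 KO lay lowest. Isg15 rose by 1.20 (SE 0.26, edgeR adjusted p = 0.00802) in labelled DKO and had a log2 fold change of -2.32 in Ing1 KO (edgeR adjusted p = 0.000663), a difference of 3.52 (edgeR adjusted p = 0.00125).

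Bst2, tetherin, which holds budding virus at the cell surface, had 43.3, 41.9 and 47.6 CPM in labelled DKO, against 24.7, 21 and 22.3 CPM in labelled Gadd45a KO. It rose by 0.97 (SE 0.12, edgeR adjusted p = 0.000211), and the groups did not overlap. Trim30a (0.82), Usp18, which removes Isg15 from proteins (1.08), and Eif2ak2, the kinase that halts translation on double-stranded RNA (0.49), rose too. The factors Stat2 at 0.22 and Irf9 at 0.25 were not called. The member that fell, Slfn5, had a log2 fold change of -0.99 and fell in Ing1 KO as well; it was singled out after its values were seen. The Oas, Ifit, Gbp and Slfn genes have close copies, so their counts are uncertain.

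The interferon list summed to 669, 661 and 831 CPM in labelled DKO, 586, 535 and 559 CPM in labelled Gadd45a KO, 401, 376 and 393 CPM in Ing1 KO and 783, 771 and 634 CPM in WT. Labelled DKO replicate 3 was highest, and without it 16 members were called higher with a median of 0.50. Macrophages also express this response, and their summed RNA was higher in labelled DKO too. Within groups the order of libraries differed between the macrophage and interferon sums. Labelled DKO replicate 3 had the lowest macrophage sum of its group (3286 CPM) and the highest interferon sum (831 CPM). Labelled Gadd45a KO replicate 1 had the lowest macrophage sum (236 CPM) and the highest interferon sum of its group (586 CPM). The part of macrophages in the interferon result was not tested. Of 10 genes of MHC class I presentation, which interferon also raises, 3 rose, where 15.8% of all genes did. Tap2 fell by 0.32, a call that was lost when any 1 of the 6 libraries was left out. Psmb8, an immunoproteasome subunit, rose by 0.65, H2-D1 by 0.32 and B2m by 0.18, and B2m lost its call without labelled DKO replicate 3 or without labelled Gadd45a KO replicate 2 or 3. In Ing1 KO 7 of the 10 fell, where 11.4% of all genes did.

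**Figure D3:**
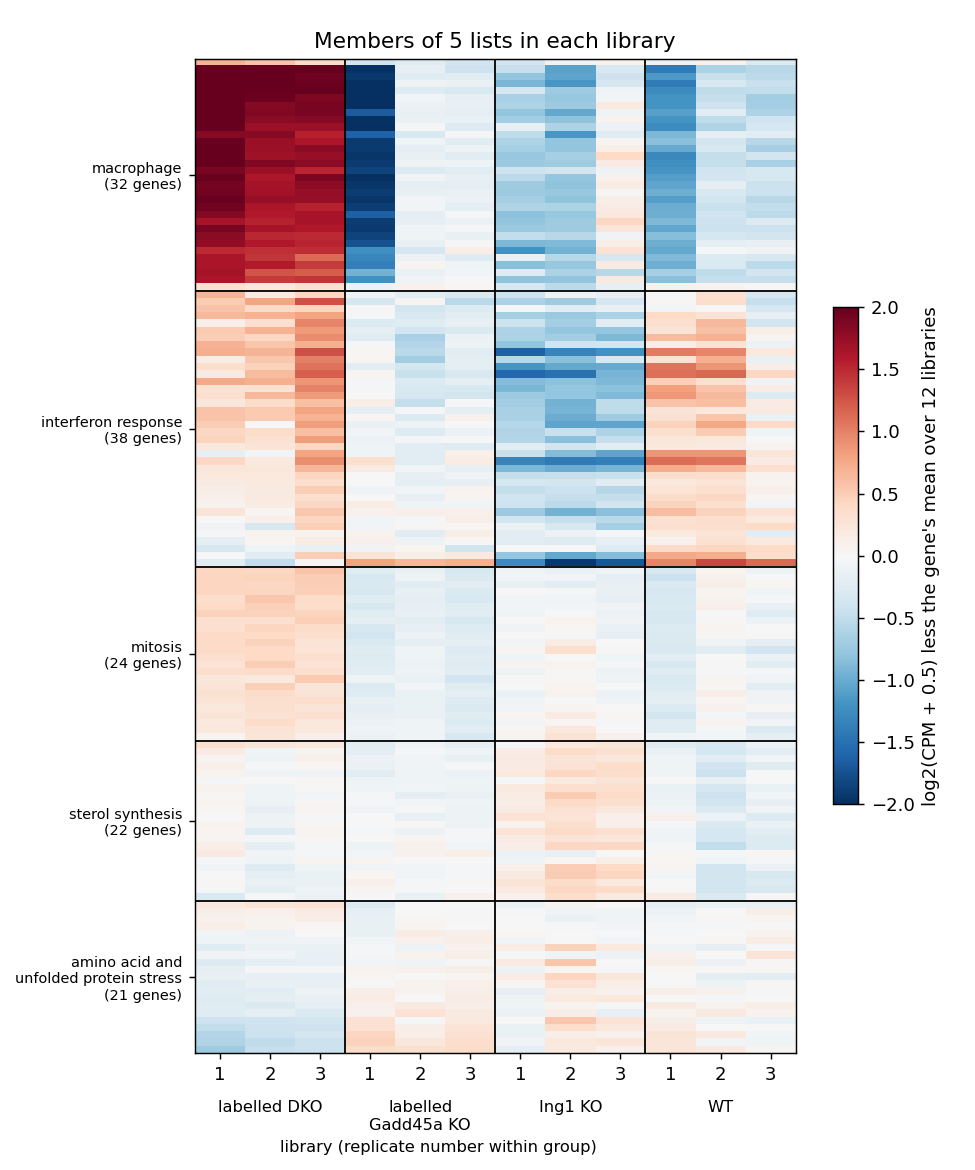
Log2(CPM + 0.5) of each member of 5 lists less its mean over the 12 libraries, 1 row per gene and 1 column per library; red is above and blue below the gene's mean, with the scale ending at 2 in either direction. Macrophage genes are high in the 3 labelled DKO libraries and lowest in labelled Gadd45a KO replicate 1, interferon genes are low in Ing1 KO, and mitosis genes are higher in labelled DKO than elsewhere.

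Genes of the dividing cell rose together by a small amount. DNA replication genes load and run the replication machinery in S phase, largely under E2F factors, and mitosis genes act later, many under promoters with CCAAT boxes. Of 26 replication genes 25 rose, with a median of 0.47 and Fen1 the one not called. All 24 mitosis genes rose, with a median of 0.56, beside 15.8% of all genes higher. All of the 26 and all of the 24 would have passed the low-count filter without the labelled DKO libraries, and the libraries of both groups overlapped for none of these genes, beside no overlap for 45.7% of all genes.

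Mcm6, part of the replicative helicase, had 112, 113 and 115 CPM in labelled DKO, against 78.1, 80.8 and 80.6 CPM in labelled Gadd45a KO (log2 fold change 0.51, SE 0.05, edgeR adjusted p = 4.48e-05). Mki67, the proliferation marker Ki-67, had 165, 164 and 184 CPM in labelled DKO, against 104, 111 and 98.3 CPM in labelled Gadd45a KO (log2 fold change 0.71, SE 0.08, edgeR adjusted p = 0.000119). Labelled DKO was higher in every library of both genes, by less than 2-fold. Pcna, the sliding clamp of replication, rose by 0.39, Mcm3 by 0.58, Prc1, which bundles spindle microtubules, by 0.54, and Bub1b, of the spindle checkpoint, by 0.66.

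Promoters of 3 mitosis genes are shown for their CCAAT boxes, in capitals where they stand on the gene's strand.
Ccnb1, chr13:100786487-100786606, minus strand: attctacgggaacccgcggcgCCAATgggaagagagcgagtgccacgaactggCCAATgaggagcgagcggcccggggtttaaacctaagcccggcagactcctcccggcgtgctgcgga
Ccnb2, chr9:70421555-70421674, minus strand: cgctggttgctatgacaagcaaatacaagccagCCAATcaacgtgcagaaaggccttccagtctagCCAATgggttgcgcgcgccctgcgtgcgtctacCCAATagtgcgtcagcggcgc
Prc1, chr7:80294351-80294450, plus strand: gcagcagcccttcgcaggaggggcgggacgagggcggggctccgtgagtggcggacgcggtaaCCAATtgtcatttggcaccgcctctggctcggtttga

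Promoter sequences were at hand for 19 mitosis genes, and 17 of them (89.5%) held CCAAT on either strand in the 250 bases before the start, beside 40.2% of all tested genes with a promoter, and 8 (42.1%) held the cell cycle homology element TTTGAA, beside 12.7%. For replication genes, 3 of 21 (14.3%) held the E2F motif TTCCCGCC, beside 3.91%. For macrophage genes, 2 of 24 (8.33%) held GAGGAAGT, a PU.1 motif, beside 2.91%.

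In Ing1 KO against WT the same lists stayed near their WT level, with medians of 0.02 for replication and 0.05 for mitosis. There 2 replication genes rose and 1 fell, and 4 mitosis genes rose, where 12.1% of all genes rose and 11.4% fell. The difference between the 2 changes was called higher for 20 of 26 replication genes and 17 of 24 mitosis genes, and lower for none. Among all genes it was higher for 10.4% and lower for 7.4%. Summed mitosis RNA was 1389, 1436 and 1433 CPM in labelled DKO, 926, 993 and 905 CPM in labelled Gadd45a KO, 1062, 1108 and 1028 CPM in Ing1 KO and 892, 1114 and 1018 CPM in WT. The part of dividing macrophages in this rise was not tested. Of 14 cell cycle inhibitors and D cyclins with their kinases, 5 rose and 3 fell, beside 15.8% and 10.6% of all genes. Leaving out 1 library gave 3 higher in each case but labelled DKO replicate 3 (4 higher), and 1 lower in each case but labelled Gadd45a KO replicate 2 (3 lower). Rbl1, an Rb family member, rose by 0.59 and Cdkn2c by 0.54, while Cdkn2b fell by 0.39 and Cdkn2a was not called at -0.11.

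Glycolysis and hypoxia genes rose: 18 of 21 rose (15.8% of all genes did), none fell, and the median was 0.39. These genes encode glucose uptake and breakdown and the responses that hypoxia-inducible factors switch on. Tpi1 (0.39), Ldha (0.32) and Aldoa (0.29) rose modestly. Of members picked after their values were seen, Slc2a1, the glucose transporter, had 516, 451 and 413 CPM in labelled DKO, against 176, 302 and 256 CPM in labelled Gadd45a KO, and rose by 0.91 (SE 0.22, edgeR adjusted p = 0.0143). Egln3, an oxygen sensor, rose by 1.18 and Bnip3 by 0.97. The count rested partly on single libraries: 9 members were called without labelled DKO replicate 1 and 11 without labelled Gadd45a KO replicate 1. Labelled Gadd45a KO replicate 1 was low for Slc2a1, as for macrophage genes. In Ing1 KO 5 of the 21 rose, where 12.1% of all genes did. The difference between the 2 changes was called higher for 2 of the 21, where 10.4% of all genes were.

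**Figure D4:**
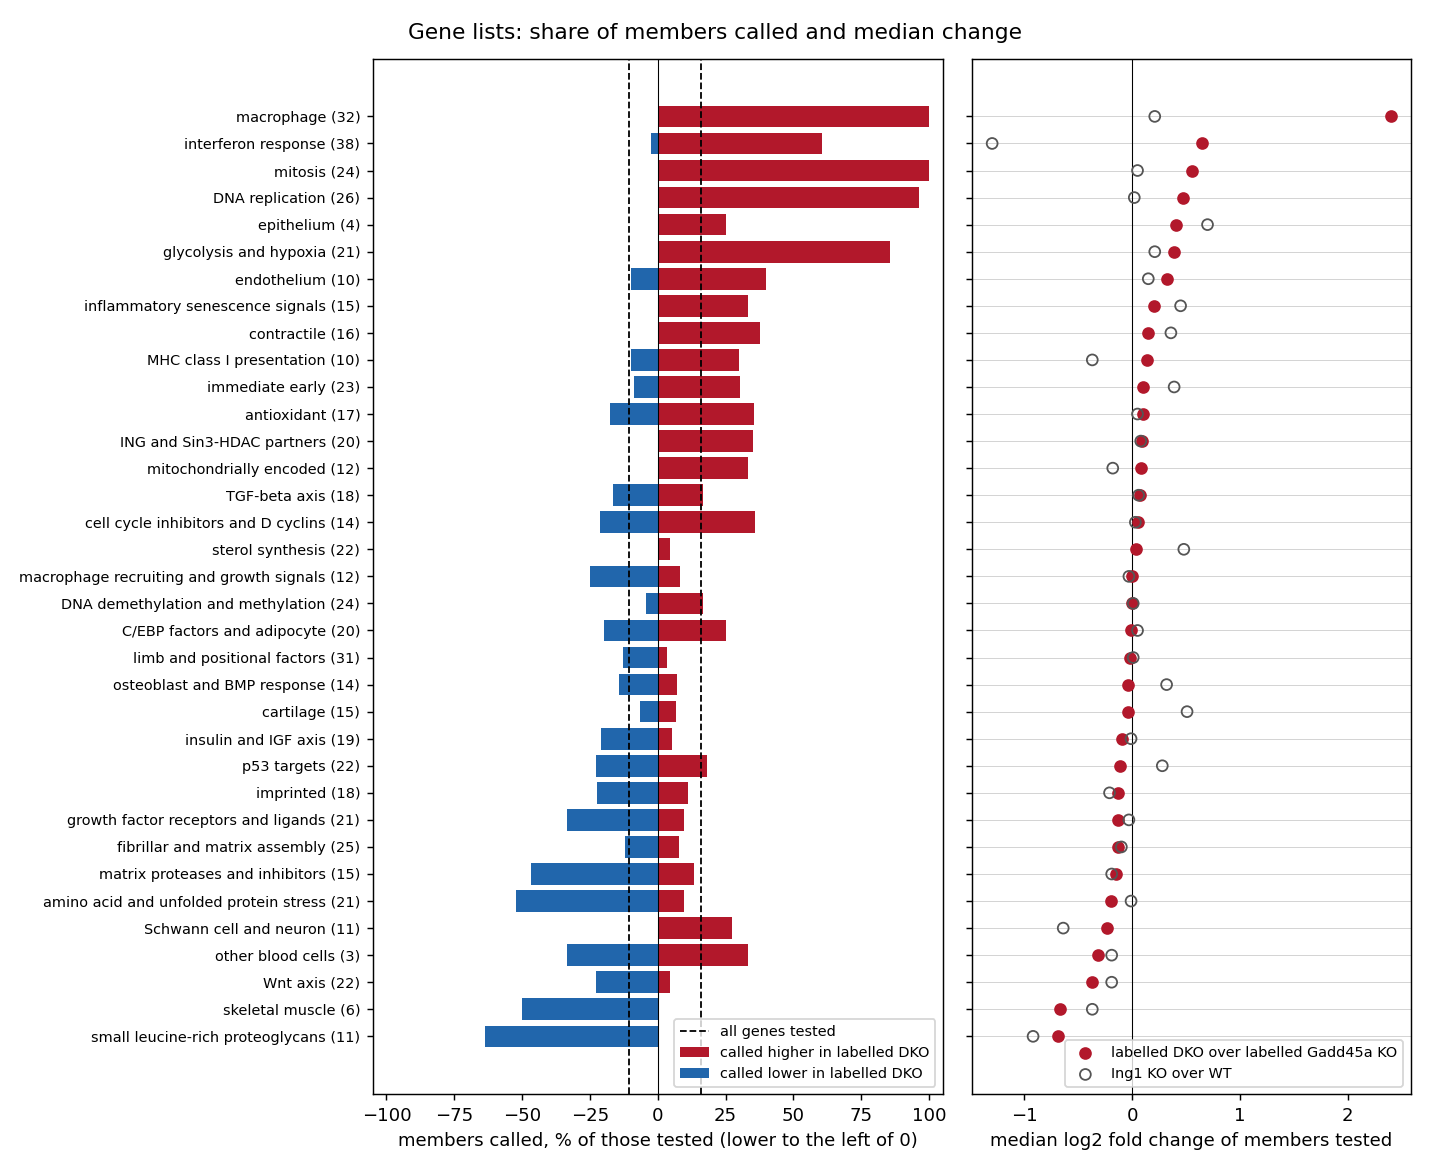
Left, the share of each list's tested members called higher (red) or lower (blue, left of 0) in labelled DKO against labelled Gadd45a KO, with the number tested in brackets and the share of all genes called as dashed lines (15.8% and 10.6%). Right, the median log2 fold change of the tested members in that comparison (filled) and in Ing1 KO over WT (open). The macrophage, mitosis and replication lists lie far above the dashed line in labelled DKO and near 0 in Ing1 KO, and the interferon list has opposite signs.

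Among matrix genes the small leucine-rich proteoglycans held 7 members that fell. These proteins bind collagen fibrils and growth factors. Of 11 none rose and 7 fell, with a median of -0.69, against 10.6% of all genes lower. Prelp had 33.7, 34.1 and 25 CPM in labelled DKO, against 69.7, 77.6 and 71.6 CPM in labelled Gadd45a KO, and fell by 1.24 (SE 0.21, edgeR adjusted p = 0.00251). Bgn, the most abundant, had 6962, 6574 and 6880 CPM in labelled DKO, against 8531, 8489 and 8388 CPM in labelled Gadd45a KO, and fell by 0.32. Podn fell by 0.69 and, chosen after its values were seen, Dcn by 0.85. All 11 fell in Ing1 KO (11.4% of all genes did), with a median of -0.92. The difference between the 2 changes was called higher for 3 of 11 (10.4% of all genes were) and lower for none, with a median of 0.23. The 3 were Dcn at 0.72, Aspn at 0.75 and Kera at 1.95.

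Fibrillar matrix changed little, with 2 of 25 higher and 3 lower, beside 15.8% and 10.6% of all genes. The lower count was 6 with DESeq2, and 1 without labelled DKO replicate 1 or 2 or labelled Gadd45a KO replicate 1. Tnc, tenascin, rose by 0.40 and Loxl2, a collagen cross-linker, by 0.21, while Col5a2 fell by 0.25. Loxl2 lost its call without labelled DKO replicate 1 or without labelled Gadd45a KO replicate 2 or 3. Of 15 matrix proteases and inhibitors 7 fell and 2 rose, where 10.6% of all genes fell and 15.8% rose. None of the 15 rose without labelled Gadd45a KO replicate 1. Adamts1, which cleaves proteoglycans, had 144, 152 and 160 CPM in labelled DKO, against 285, 254 and 240.2 CPM in labelled Gadd45a KO (log2 fold change -0.77, SE 0.06, edgeR adjusted p = 2.25e-05). Mmp11 fell by 0.85 and Adamts5 by 0.65.

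The Wnt, growth factor and insulin lists held more genes that fell than rose, on few calls each. Over all genes 10.6% fell and 15.8% rose. In the Wnt axis 5 of 22 fell and 1 rose, with a median of -0.37. Lgr5, a receptor for the R-spondins that strengthen Wnt signals, had 91.2, 96.8 and 111 CPM in labelled DKO, against 329.6, 289 and 280.2 CPM in labelled Gadd45a KO, and fell by 1.59 (SE 0.20, edgeR adjusted p = 0.000694). It fell by 1.65 in Ing1 KO too, a difference of 0.06 that was not called (edgeR adjusted p = 0.91). Nkd1 and Nkd2, feedback inhibitors of the pathway, fell by 0.86 and 0.69. Of 21 growth factor receptors and ligands 7 fell and 2 rose, and 4 fell without labelled DKO replicate 3 or labelled Gadd45a KO replicate 1. Fgf21, a hormone of fasting, fell by 1.27, Fgfr2 by 0.42 and Pdgfrb by 0.34. In the insulin and IGF axis 4 of 19 fell and 1 rose, with a median of -0.09. Irs1, the adaptor of the insulin receptor, fell by 0.88. It had 34.5, 33.7 and 37.9 CPM in labelled DKO, against 74.9, 58.4 and 62.2 CPM in labelled Gadd45a KO. In the TGF-beta axis 3 of 18 rose (5 without labelled DKO replicate 3) and 3 fell, and Ltbp1, which stores latent TGF-beta in the matrix, rose by 0.59, Bambi by 0.53 and Tgfb1 by 0.52.

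Genes of amino acid shortage and unfolded protein stress fell: 11 of 21 fell (10.6% of all genes did) and 2 rose, with a median of -0.20. The regulator Atf4 induces most of them. Trib3 had 47.6, 56.8 and 57.5 CPM in labelled DKO, against 101, 97.1 and 101 CPM in labelled Gadd45a KO, and fell by 0.89 (SE 0.10, edgeR adjusted p = 0.000134). Atf5 fell by 0.86 and Herpud1 by 0.39. In Ing1 KO 1 of the 21 fell and 3 rose, where 11.4% of all genes fell and 12.1% rose. The difference between the 2 changes was called lower for 10, where 7.4% of all genes were.

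Sterol synthesis held 1 call here, where 15.8% of all genes rose and 10.6% fell. Of 22 genes Stard4, a carrier of cholesterol, alone rose, by 0.41, none fell, and the median was 0.04. In Ing1 KO 19 rose with a median of 0.48, where 12.1% of all genes rose and 11.4% fell. The difference between the 2 changes was called lower for 13, where 7.4% of all genes were. A like gap was seen for p53 targets, with 4 higher and 5 lower of 22 here (3 lower without labelled DKO replicate 1 or 3 or labelled Gadd45a KO replicate 1, and 8 without labelled Gadd45a KO replicate 2) and 12 higher and 2 lower in Ing1 KO. Immediate early genes had 7 higher and 2 lower of 23 here and 16 higher in Ing1 KO. Here 2 were higher without labelled DKO replicate 1, 4 without labelled Gadd45a KO replicate 1 and 3 without its replicate 3. Dusp6, a brake on the MAP kinase pathway, rose by 0.98, Atf3 rose by 0.82, and Egr1 fell by 0.47. Contractile genes had 6 higher of 16 here and 12 in Ing1 KO, and Cnn1, calponin, rose by 0.39, a difference of -0.42 (edgeR adjusted p = 0.0273).

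Chromatin genes moved little. Of 20 partners of ING and the Sin3 deacetylase complex 7 rose and none fell, where 15.8% of all genes rose and 10.6% fell. Sap30, a subunit of that complex, had 14.5, 13.6 and 13.2 CPM in labelled DKO, against 6.61, 9.01 and 7.63 CPM in labelled Gadd45a KO, and rose by 0.83 (SE 0.13, edgeR adjusted p = 0.000639). Ing2, the closest relative of Ing1, rose by 0.51 and Sin3a by 0.26. Of 24 genes of DNA methylation and demethylation 4 rose and 1 fell, beside the same shares of all genes. Uhrf1, which brings Dnmt1 to newly replicated DNA, rose by 0.59, Dnmt1 by 0.29 and Mbd4 by 0.39; Mbd4 lost its call without labelled Gadd45a KO replicate 3, which left 2 higher. Of 17 antioxidant genes 6 rose and 3 fell, with Hmox1, heme oxygenase, at 151, 140.2 and 137 CPM in labelled DKO and 77.9, 89 and 88.8 CPM in labelled Gadd45a KO (log2 fold change 0.74, SE 0.06, edgeR adjusted p = 2.25e-05). Of 12 mitochondrially encoded genes 4 rose here and 4 fell in Ing1 KO (11.4% of all genes did). Among them mt-Atp8, which overlaps mt-Atp6 on the same strand, rose by 0.40 here. Without labelled Gadd45a KO replicate 2 or 3, 2 of the 12 rose.

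The remaining lists held few calls or calls in both directions, where 15.8% of all genes rose and 10.6% fell. Of 20 C/EBP factors and adipocyte genes 5 rose and 4 fell: Plin2, a lipid droplet coat protein, rose by 0.52, and Klf15, an adipogenic factor, had 0.115, 0.6 and 0.398 CPM in labelled DKO, against 1.61, 1.29 and 1.48 CPM in labelled Gadd45a KO. Without labelled DKO replicate 1 or 3 or labelled Gadd45a KO replicate 3, 3 of the 20 rose. Of 18 imprinted genes 2 rose and 4 fell, with Sgce at -0.33, and without labelled DKO replicate 1 none rose and 1 fell. Of 31 limb and positional factors 1 rose and 4 fell, with Prrx2 at -0.55, and without labelled DKO replicate 1 none rose and 1 fell. Of 15 inflammatory senescence signals 5 rose, among them Il1b, Il1a and Lmnb1, and none fell; Lmnb1, a lamin that senescent cells lose, rose by 0.43. Of 14 osteoblast and BMP response genes 1 rose, Id2 by 0.60, and 2 fell. Cartilage had 1 higher and 1 lower of 15. Among lists of other cells, Schwann cell and neuron had 3 higher of 11, yet a median of -0.23, with 7 below 0. Nes, an intermediate filament of progenitor cells, rose by 0.82, while Tubb3 and Elavl4 lost their calls in 6 and 8 alternatives. Skeletal muscle had 3 lower of 6, the scarce Myh3, Actc1 and Tnnt3, with means of at most 1.03 CPM in labelled Gadd45a KO. Its sum was 36.4, 33.4 and 33.2 CPM in labelled DKO, above the 29, 30.8 and 29.2 CPM of labelled Gadd45a KO. Tnnt3 lost its call in 4 alternatives and Actc1 in 1. Epithelium had 1 higher of 4 and other blood cells 1 higher and 1 lower of 3.

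With the limits used for the genes that rose most (mean of at least 2 CPM, groups not overlapping), the 11 called genes that fell most after Ing1 had means between 3.42 and 20.6 CPM in labelled Gadd45a KO. Ryr3, a calcium release channel, had 0.662, 0.6 and 0.875 CPM in labelled DKO, against 4.58, 2.95 and 4.8 CPM in labelled Gadd45a KO (log2 fold change -2.51, SE 0.29, edgeR adjusted p = 0.000133). P2rx3, an ATP-gated channel of sensory neurons, fell by 2.38, Lonrf2 by 1.97, and Matn4 and Cilp, of cartilage matrix, by 1.97 and 1.92. Ntrk2 (1.89 lower on the log2 scale), Sv2c, Aqp1, Naalad2, Dner and the uncharacterised Gm11816 complete the 12, and Ryr3, P2rx3, Matn4, Gm11816, Ntrk2, Sv2c, Naalad2 and Dner overlap another annotated gene. Aqp1, a water channel, had 6.53, 4.9 and 6.13 CPM in labelled DKO and a mean of 20.6 CPM in labelled Gadd45a KO (SD 4.56, n = 3). Cilp lost its call when any 1 of the 6 libraries was left out, at log2 fold changes between -1.99 and -1.86, and Aqp1 without labelled DKO replicate 2 (-1.70).

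The difference between the 2 changes with Ing1 loss was called for 2687 genes (17.8%). Of the 3988 calls, 973 were also called in the same direction in Ing1 KO against WT. They made up 24.4% of the 3988, 27.5% of the 3543 calls there and 6.44% of all genes tested. They were 463 of the 2387 genes called higher here and 510 of the 1601 called lower. In Ing1 KO against WT 12.1% of all genes were called higher and 11.4% lower. A further 191 (1.27% of all genes) were called in opposite directions (4.79% and 5.39% of the calls), 111 of them higher in labelled DKO and lower in Ing1 KO and 80 the other way. Without Ing1 KO replicate 2 these counts were 642 and 82. Genes lower in both included Matn4, Cilp, Prrg3 and Spon1; Prrg3 fell by 1.70 here and 1.83 in Ing1 KO, and Spon1, an adhesion protein of the matrix, by 1.63 and 1.60. Genes higher in both included Il1rn, the antagonist of the interleukin 1 receptor, at 1.66 here and 1.43 in Ing1 KO, with Cbr2, Mab21l2 and Ppbp. Higher here and lower in Ing1 KO were Npl, Mndal and Ifi203, the last 2 at 1.35 and 1.11 here and -1.37 and -1.69 in Ing1 KO. Mndal and Ifi203 are interferon-inducible genes of a family with close copies, and they overlap each other on the same strand. Their counts are therefore uncertain and may not be independent. Lower here and higher in Ing1 KO were Anxa8, Pcp4l1, Cx3cl1, Tmem151a and Cbarp, with Anxa8 at -0.71 here and 0.66 in Ing1 KO.

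**Figure D5:**
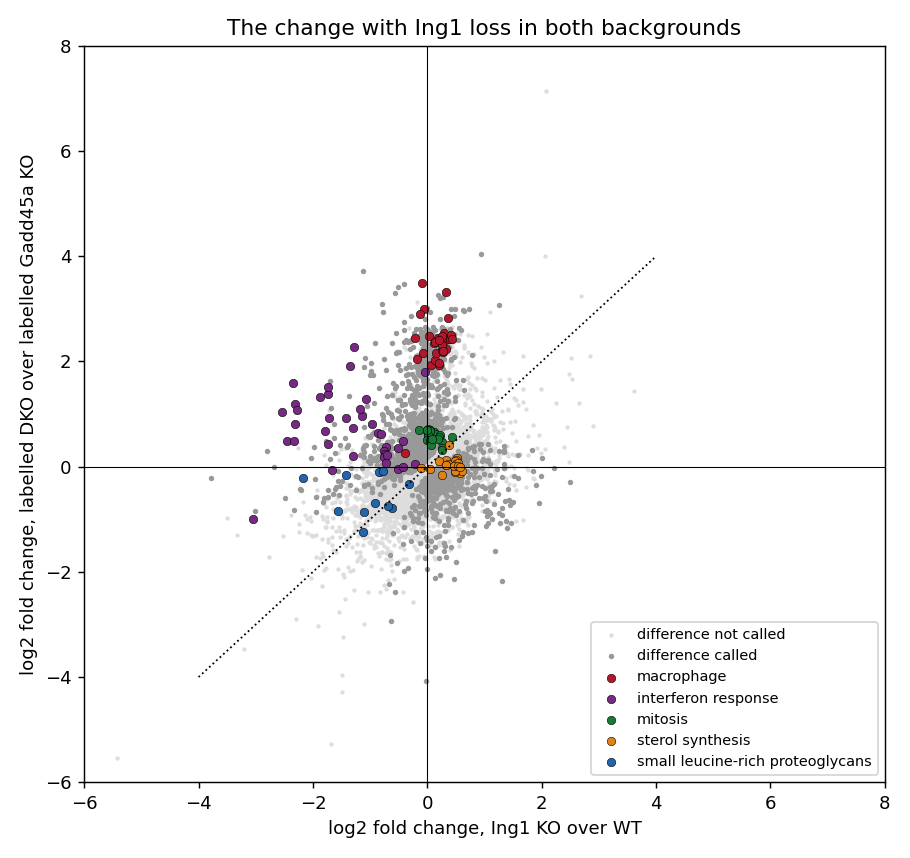
Log2 fold change of labelled DKO over labelled Gadd45a KO (vertical axis) against that of Ing1 KO over WT (horizontal axis), 1 point per gene tested; genes whose difference was called are darker, 5 lists are coloured, and the dotted line marks equal change. Macrophage genes lie high near 0 on the horizontal axis, interferon genes lie left and mostly above 0, sterol genes lie right near 0 on the vertical axis, and proteoglycan genes lie below 0 on both axes.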

How the data were processed

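RNA was measured in 12 libraries, 4 genotypes of 3. The values are read counts per gene, 1 table per library, as the authors deposited them. Per the submitters' processing notes, TopHat2 2.0.9 and Bowtie2 2.1.0 mapped the reads to mm9 (NCBIM37) and HTSeq 0.5.4 counted them; DESeq is named too. Per the labels' protocols, the kit (TruSeq RNA v2, from polyadenylated RNA) does not mark strand, so reads of overlapping genes on opposite strands cannot be told apart by strand. How the counting treated such reads is not stated, so the counts of these genes are uncertain.

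The 5 summary lines, 23.9% to 24.9% of each library, were left out. The 37991 identifiers went into edgeR 4.0.16 (R 4.3.3): TMM, filterByExpr (15098 genes left), robust quasi-likelihood, two-sided, 1 fit of all libraries with 4 groups, Benjamini-Hochberg over all genes, called at adjusted p under 0.05. DESeq2 1.42.0, RLE, no filter, only the compared libraries, a replicate block and leaving out each library were alternatives. The test was checked on simulated counts. Symbols matched 32919 identifiers through GENCODE names of another build; promoters are RefSeq GRCm38.p6, so the only coordinates given are of that build.

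Members and 35 gene lists were chosen with earlier results of these data known. Named genes are Ing1 and Gadd45a, the 12 highest and 12 lowest called genes (mean CPM at least 2, a symbol, groups not overlapping), up to 3 called members per list by smallest adjusted p, the 6 highest and 6 lowest differences (mean CPM at least 2 over 12 libraries), and up to 5 genes per combination called in both comparisons; other members are named for their role or as single exceptions, after their values were seen. Some genes this rule names are not reported here. Besides those said in the report, Aldoa, Anxa8, Atf3, Atf5, B2m, Bnip3, Cbarp, Ccl2, Ccl6, Cdh5, Eif2ak2, F13a1, Fcgr2b, Fen1, Fgfr2, Herpud1, Il1a, Il1b, Il34, Ing2, Irs1, Lgr5, Loxl2, Mab21l2, Mbd4, Mki67, Mmp11, Nkd2, Pdgfra, Podn, Prc1, Prelp, Psmb8, Rbl1, Sin3a, Slc2a1, Slco2b1, Slfn5, Tap2, Tmem151a, Tnc, Tpi1, Trim30a and Usp18 overlap another annotated gene on the opposite strand.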

Additional observations from a re-analysis of the deposited data

Results flagged for a closer look

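The change with Ing1 loss differed between the labelled Gadd45a KO background and the WT background for 2687 genes, by edgeR's test of the difference itself (adjusted p under 0.05); every gene in this section passed it. Values are the log2 fold change of labelled DKO over labelled Gadd45a KO less that of Ing1 KO over WT.

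Among called genes averaging at least 2 CPM over the 12 libraries, the highest values were Ccl6 at 3.92, F13a1 at 3.86, Ifit1 at 3.59, Isg15 at 3.52, Usp18 at 3.35 and Arg1 at 3.11, and the lowest were Aqp1 at -2.31, Rbfox1 at -2.24, Gata2 at -2.01, Egflam at -1.94, Lama1 at -1.9 and Six2 at -1.87. Rbfox1, an RNA splicing factor of neurons, and Gata2 were not called in labelled DKO against labelled Gadd45a KO and rose in Ing1 KO; Rbfox1 had 1.67, 1.86 and 1.51 CPM in labelled DKO, 2.76, 1.84 and 1.79 CPM in labelled Gadd45a KO, 5.66, 6.19 and 3.74 CPM in Ing1 KO and 1.66, 1.1 and 1.41 CPM in WT.

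In the interferon list Bst2 differed by 2.11, Trim30a by 1.79 and Eif2ak2 by 0.91. In the macrophage list Folr2 differed by 1.87, Cd14 by 1.88 and the scarce Timd4 by 3.59. In DNA replication Mcm6 differed by 0.51, Pcna by 0.5 and Mcm3 by 0.63, and in mitosis Prc1 by 0.51, Bub1b by 0.54 and Mki67 by 0.69.

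Among genes called in opposite directions, Mndal differed by 2.72, Ifi203 by 2.8 and Npl by 2.39, and Anxa8 by -1.37, Pcp4l1 by -1.57, Cx3cl1 by -0.98, Tmem151a by -1.06 and Cbarp by -0.8.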

How the results depend on the processing

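With RLE scaling 3954 genes were called, without the low-count filter 3540, in a fit of the 6 libraries alone 4199, with DESeq2 3933 and with the replicate block 3856. The replicate numbers gave no sign of pairing labelled DKO with labelled Gadd45a KO libraries. Deviations of same-numbered libraries correlated at -0.12, -0.12 and 0.03, and those of other pairs between -0.08 and 0.14. With 3 libraries a group this check cannot show that pairing is absent. With the block Tap2 lost its call while no gene named by rule did. Leaving out single libraries gave 983 to 1487 lower genes, 1858 to 3548 calls in Ing1 KO against WT, 1300 to 3285 for the difference of both changes (804 to 1824 higher, 496 to 1461 lower), 642 to 1030 genes called in the same direction and 82 to 284 in opposite directions. A fit of 6 libraries gives no value for that difference. Of 123 named genes called, 102 kept the call in each alternative, 21 lost it in at least 1 and none changed sign. Gadd45a was called with DESeq2 (0.33) and without labelled Gadd45a KO replicate 2 (0.46). For Cilp the difference ran between -0.52 and 1.03, turning positive without Ing1 KO replicate 1, and the median of the Schwann cell and neuron list between -0.51 and 0.06, turning positive without labelled Gadd45a KO replicate 1; the cause was not tested. The differences for Six2, Aqp1, F13a1 and Gata2 each lost their call in at least 3 alternatives. Timd4, Il1a, Klf15 and other scarce genes rest on few counts. List counts of 1 to 3 calls often moved by over 1.5 times when 1 library was left out.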
